A study of Mus musculus with 17 samples.

Results

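The peroxiredoxin and thioredoxin system was described here in the left ventricle after myocardial infarction (MI), through every array probe that the platform annotation pairs with Prdx1, Prdx2, Prdx3, Prdx4, Prdx5, Prdx6, Txn1, Txn2, Txnrd1 or Txnip by current or former symbol. The annotation listed 16 probes for 8 of these 10 genes, out of 45281 probes on the array. It listed none for Prdx5 and Prdx6, which were not analysed here. Of the 16 probes, 10 probes of 7 genes were bright enough to be tested, among 13609 tested probes in all. The rule names the genes and uses no measured value, but the genes were chosen with earlier results of these data known.

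RNA came from the remote, non-infarcted posterior and inferior free wall, collected at 4 weeks from hearts perfused with buffer. The MI+Val group (n = 5) had ligation of the left anterior descending coronary artery and then valsartan, an angiotensin II type 1 receptor blocker, at 1 mg/kg/day in drinking water. The MI group (n = 6) had the ligation without the drug, and the sham group (n = 6) had thoracotomy without ligation. All were female mice of the strain labelled C57/BL6, the substrain C57BL/6N by the study's methods. They were aged 8 to 10 weeks when entered into the study, and RNA was taken 4 weeks after surgery. Infarcted mice were kept only when their ejection fraction lay between 35 and 45% at 24 hours, so hearts with smaller or larger damage are not represented. No sham group received valsartan. Each array held RNA of 1 mouse.

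Peroxiredoxins reduce hydrogen peroxide and organic peroxides through a reactive cysteine, and most of them are then restored by thioredoxin. Thioredoxin is in turn kept reduced by thioredoxin reductase, a selenoprotein that uses NADPH. Txnip binds thioredoxin and inhibits it, and is also an alpha-arrestin that lowers glucose uptake. In heart muscle, which respires heavily, the mitochondrial branch of Prdx3 and Txn2 works beside the cytosolic one.

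None of the 10 tested probes differed between groups after adjustment. With limma and Benjamini-Hochberg adjustment over all 13609 probes, 0 of 10 passed the 3-group F test at an adjusted p under 0.10, which 4.14% of all probes passed. In MI vs sham 0 of 10 passed at an adjusted p under 0.05, against 4.78% of all probes. Between MI+Val and MI 0 of 10 passed, against 0.00735% of all probes, and in MI+Val vs sham 0 of 10 passed, against 0.0147%. At an unadjusted p under 0.05 there were 2 of 10 in MI vs sham, against 19.2% of all probes, 2 of 10 in MI+Val vs MI, against 8.61%, and 0 of 10 in MI+Val vs sham, against 7.38%. The methods' t-test on the same values, at an unadjusted p under 0.01 or after adjustment, also called 0 of 10 in each comparison. The sizes that these comparisons leave possible are given below as 95% intervals.

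Across the 10 probes, the median log2 difference was -0.10 in MI vs sham (median of all tested probes -0.01), -0.01 in MI+Val vs MI (all probes 0.00) and -0.11 in MI+Val vs sham (all probes -0.01). In MI vs sham 3 of 10 probes were above 0 and 7 below, and 47.4% of all tested probes were above 0. For MI+Val vs MI 5 were above and 5 below, with 50.9% of all tested probes above. For MI+Val vs sham 2 were above and 8 below, with 48.2% of all above. Prdx2 and Txnip entered with several probes each, so the 10 probes are not independent. The MI mice enter MI vs sham and also MI+Val vs MI, and the sham mice enter both comparisons against sham.

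The signals of all 16 probes, as deposited, separated the tested probes from those near background. A probe was tested when the 33rd percentile of its signal over the 17 arrays reached the signal floor of the study's methods. The 10 tested probes had a detection p under 0.01 on all 17 arrays, and the second probe of Prdx4, the other 2 of Txn1 and the second of Txn2 had it on 0 of 17. The single Txnrd1 probe, for the cytosolic thioredoxin reductase, lay just under it, with a 33rd percentile of 118. Its signal ranged over 106 to 131 in MI+Val mice (detected in 1 of 5), 94.9 to 135 in MI mice (2 of 6) and 114 to 131 in sham mice (2 of 6). The second Prdx1 probe, with a 33rd percentile of 114, read 103 to 128 in MI+Val mice (detected in 2 of 5), 101 to 139 in MI mice (2 of 6) and 111 to 129 in sham mice (1 of 6). For both, the signals of the 3 groups overlapped, and a difference in Txnrd1 was not detectable with this probe.

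**Figure D1:**
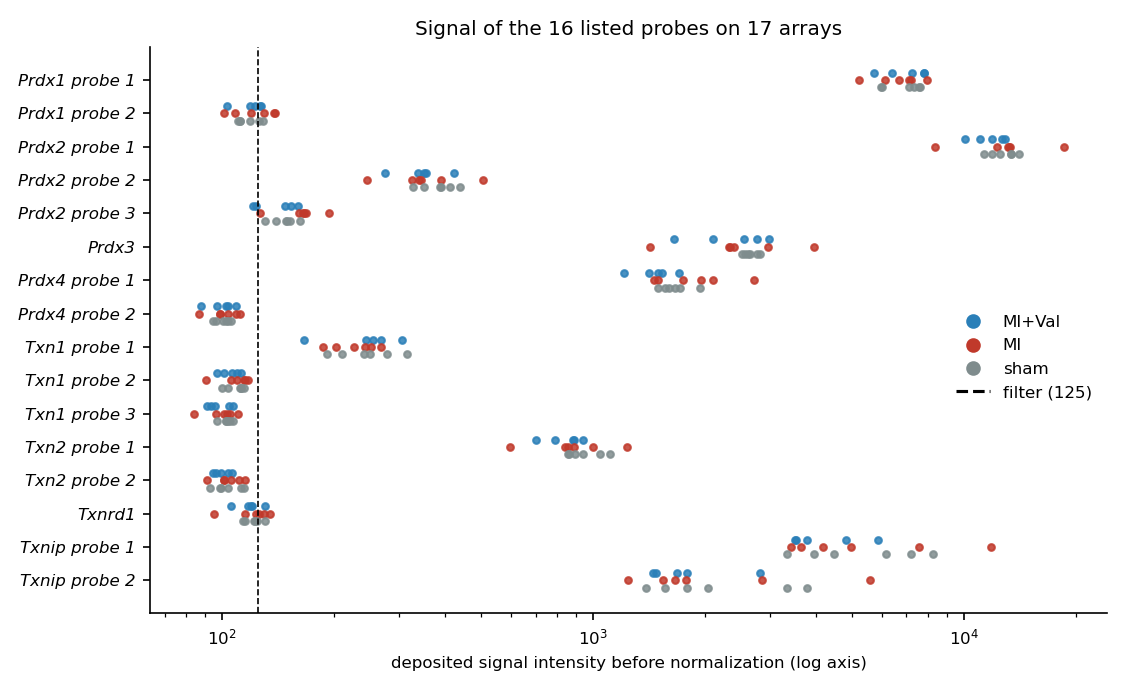
Deposited signal intensity (log axis) of each of the 16 listed probes on the 17 arrays, 1 point a mouse, with MI+Val above MI above sham in each row; the dashed line is that floor. The 6 probes that were not tested lie near the line or left of it, and Txnrd1 is among them.

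Prdx1, an abundant cytosolic peroxiredoxin, had a normalized log2 intensity of 12.85, 12.78, 12.81, 12.88 and 12.70 in the 5 MI+Val mice. It lay between 12.44 and 12.88 in MI mice (median 12.62) and between 12.51 and 12.91 in sham mice (median 12.78). The groups overlapped, and the MI+Val mice lay within the range of the MI mice and within that of the sham mice. The log2 difference was -0.11 ± 0.09 (SE) in MI vs sham (95% interval -0.30 to 0.08), 0.16 ± 0.10 in MI+Val vs MI (-0.04 to 0.36) and 0.05 ± 0.10 in MI+Val vs sham (-0.15 to 0.25), with limma adjusted p = 0.563, 0.672 and 0.952.

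Prdx2, a cytosolic peroxiredoxin that is also very abundant in red blood cells, had 3 tested probes, and they did not move together. Probe 1 (ILMN_2773554) read 13.60, 13.48, 13.55, 13.62 and 13.59 in MI+Val mice, 13.48 to 13.92 in MI mice (median 13.61) and 13.51 to 13.72 in sham mice (median 13.60). Its log2 difference was 0.03 in MI vs sham (95% interval -0.14 to 0.20), -0.07 in MI+Val vs MI (-0.25 to 0.11) and -0.04 in MI+Val vs sham (-0.22 to 0.14). On the fold scale these intervals ran from 0.840 to 1.15 over all 3 comparisons, the narrowest of any member.

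Probe 2 of Prdx2 (ILMN_2638354) read 8.33, 8.26, 8.03, 8.09 and 7.82 in MI+Val mice, 7.90 to 8.12 in MI mice (median 7.95) and 7.90 to 8.52 in sham mice (median 8.24). In MI vs sham its log2 difference was -0.23 ± 0.10 (SE; unadjusted p = 0.0371, limma adjusted p = 0.222). Probe 3 (ILMN_1242829), whose signal of 121 to 194 lay close to the floor, read 5.53, 5.77, 6.15, 5.96 and 5.74 in MI+Val mice, 5.81 to 6.34 in MI mice (median 6.26) and 5.42 to 6.25 in sham mice (median 5.93). Its log2 difference was 0.31 ± 0.14 in MI vs sham (unadjusted p = 0.0391, limma adjusted p = 0.228), opposite in sign to probe 2, and -0.36 ± 0.15 in MI+Val vs MI (unadjusted p = 0.0223, limma adjusted p = 0.489). In the authors' own log2 values the MI+Val vs MI difference of probe 3 was -0.10. Their scale is narrower for dim probes, so the 2 sizes are not directly comparable. For this probe, MI+Val mouse 1 at 5.53 and MI mouse 1 at 6.34 stood at 7.55 and 7.77 there. Which transcripts the probes read was not tested.

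The red blood cell list (12 tested probes of 4 genes, mostly globins) was read beside Prdx2. Its mean log2 intensity ranged over 11.52 to 13.29 in MI+Val mice, 10.69 to 13.39 in MI mice and 12.14 to 13.31 in sham mice, and 0 of 4 genes passed the test in any comparison. Over the 17 mice it correlated with Prdx2 probe 1 at Pearson r = -0.27 (permutation p = 0.296, adjusted over 3 relations p = 0.444) and Spearman rho = -0.20 (permutation p = 0.436, adjusted p = 0.654). Without the 2 mice farthest from the median of the list r was -0.33, and within chips 1, 2 and 3 it was -0.28, 0.07 and 0.18.

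Prdx3, the peroxiredoxin of the mitochondrial matrix, read 10.88, 11.41, 11.39, 11.29 and 11.24 in MI+Val mice. It lay between 10.96 and 11.41 in MI mice (median 11.13) and between 11.28 and 11.43 in sham mice (median 11.36). The sham mice were close together, and 4 of 6 MI mice lay below all of them. The log2 difference in MI vs sham was -0.18 ± 0.10 (SE; 95% interval -0.39 to 0.03, limma adjusted p = 0.351), and in MI+Val vs MI it was 0.07 (-0.15 to 0.29, adjusted p = 0.884).

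Prdx4, the peroxiredoxin of the endoplasmic reticulum and the secretory route, read 10.73, 10.40, 10.38, 10.69 and 10.38 in MI+Val mice, 10.45 to 11.05 in MI mice (median 10.74) and 10.46 to 10.90 in sham mice (median 10.63). In MI+Val vs MI its log2 difference was -0.24 ± 0.11 (SE; 95% interval -0.47 to -0.001, unadjusted p = 0.0490, limma adjusted p = 0.579), with overlapping groups. With the chip as a block it was -0.10, and within chips 1, 2 and 3 it was -0.12, -0.25 and 0.08. In MI vs sham the difference was 0.11 (-0.11 to 0.33, adjusted p = 0.622).

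Txn1, cytosolic thioredoxin, varied widely among mice of the same group in the normalized log2 intensities used here. It read 6.71, 7.13, 7.49, 7.79 and 7.66 in MI+Val mice, 6.61 to 7.67 in MI mice (median 7.04) and 6.52 to 7.89 in sham mice (median 7.35). Each group spanned over 1 log2 unit, and all 3 overlapped. The log2 difference was -0.20 ± 0.23 (SE) in MI vs sham (95% interval -0.69 to 0.29, limma adjusted p = 0.693). In MI+Val vs MI it was 0.27 ± 0.24 (-0.25 to 0.78, adjusted p = 0.795). On the fold scale these intervals reached 0.622 and 1.71. The probe was dim, with a signal of 166 to 315. In the authors' log2 values, whose scale is narrower for dim probes, it read 7.90 to 8.41 in MI+Val, 7.85 to 8.32 in MI and 7.81 to 8.46 in sham mice.

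Txn2, mitochondrial thioredoxin and the partner of Prdx3, read 9.78, 9.54, 9.63, 9.76 and 9.50 in MI+Val mice. It lay between 9.48 and 9.68 in MI mice (median 9.58) and between 9.53 and 10.01 in sham mice (median 9.72). The highest sham mice lay above every MI mouse, but the ranges overlapped. The log2 difference in MI vs sham was -0.17 ± 0.09 (SE; 95% interval -0.36 to 0.01, limma adjusted p = 0.303), and in MI+Val vs MI it was 0.05 (-0.14 to 0.25, adjusted p = 0.907).

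**Figure D2:**
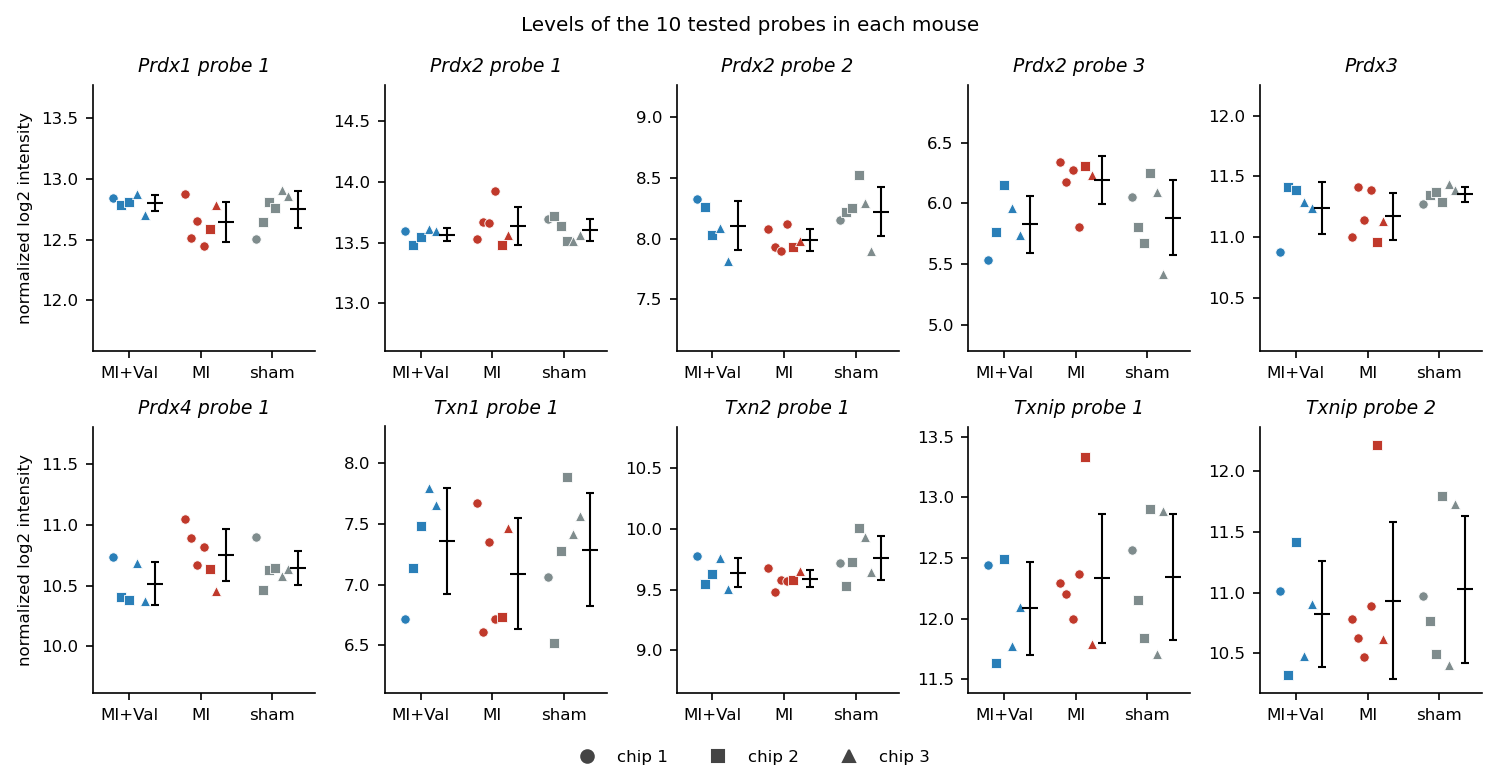
Normalized log2 intensity of the 10 tested probes in each mouse, by group, with the mean ± SD of each group (black) and the chip as the marker's shape; every panel spans the same 2.2 log2 units on its own level. All 3 groups overlap in every panel, and the spread between mice is widest for Txn1 and Txnip.

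Txnip, the thioredoxin inhibitor, was the member whose level differed most between mice of the same group. Its promoter is printed from RefSeq (GRCm38.p6, chr3:96557707-96558006, plus strand, 250 bases before to 50 after the start) because Txnip is known as a target of the glucose-sensing Mondo factors, which bind paired boxes called a carbohydrate response element. Capitals mark the match to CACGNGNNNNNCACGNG, searched on both strands, at 85 bases before the start. It was found in 16 of 32851 promoters of the same length (0.0487%). The single E-box CACGTG, tried first, was not in this window and was in 7.15% of promoters. The paired pattern was taken up after that, so its rarity is no test of this promoter. The promoter of Arrdc4, another alpha-arrestin gene, held 0 matches to the paired pattern and 1 E-box.
Txnip: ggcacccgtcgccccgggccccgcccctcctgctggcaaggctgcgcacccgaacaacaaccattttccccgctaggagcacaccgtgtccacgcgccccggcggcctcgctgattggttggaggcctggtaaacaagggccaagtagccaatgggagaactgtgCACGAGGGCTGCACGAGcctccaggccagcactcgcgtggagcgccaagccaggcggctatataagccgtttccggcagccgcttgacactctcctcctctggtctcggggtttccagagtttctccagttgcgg

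Both Txnip probes gave nearly the same order of mice. Probe 1 (ILMN_1213609) read 12.44, 11.63, 12.49, 11.78 and 12.09 in MI+Val mice, 11.79 to 13.33 in MI mice (median 12.25) and 11.71 to 12.91 in sham mice (median 12.36). Probe 2 (ILMN_3112873) read 11.01, 10.32, 11.42, 10.48 and 10.90 in MI+Val mice, 10.47 to 12.22 in MI mice (median 10.70) and 10.40 to 11.80 in sham mice (median 10.87). MI mouse 5 was the highest of all 17 on both probes, and sham mice 4 and 6 came next on both. Over the 17 mice the probes correlated at Pearson r = 0.95 (permutation p = 1e-05, the smallest that 100000 permutations can give, adjusted over 3 relations p = 3e-05) and Spearman rho = 0.95 (permutation p = 1e-05, adjusted p = 3e-05). Without MI mouse 5 and sham mouse 4, the 2 farthest from the median, r was 0.91, and within chips 1, 2 and 3 it was 0.955, 0.993 and 0.996.

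The SD of Txnip within groups was 0.49 log2 units on probe 1 and 0.58 on probe 2, and 98.02% and 98.90% of all tested probes had a smaller one. Txn1 followed with 0.46 (97.2%), but its probe is dim and its range was narrower in the authors' log2 values. At the other end Prdx2 probe 1 had 0.11, with a smaller one in 5.03% of probes. The median over all tested probes was 0.22.

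The group differences of Txnip were small beside that spread. The log2 difference was -0.01 on probe 1 and -0.09 on probe 2 in MI vs sham, with 95% intervals of -0.53 to 0.51 and -0.71 to 0.52. Between MI+Val and MI mice it was -0.25 on probe 1 and -0.11 on probe 2 (-0.79 to 0.30 and -0.75 to 0.54), and in MI+Val vs sham -0.26 and -0.20 (-0.81 to 0.29 and -0.84 to 0.44). Limma adjusted p ranged over 0.827 to 0.989 in these comparisons. Without MI mouse 5, the MI vs sham difference was -0.21 on probe 1 and -0.35 on probe 2, and the MI+Val vs MI difference was -0.04 on probe 1 and 0.15 on probe 2. Within chips 1, 2 and 3, MI minus sham was -0.35, 1.03 and -0.50 on probe 1, where the single MI array of chip 2 was that mouse.

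**Figure D3:**
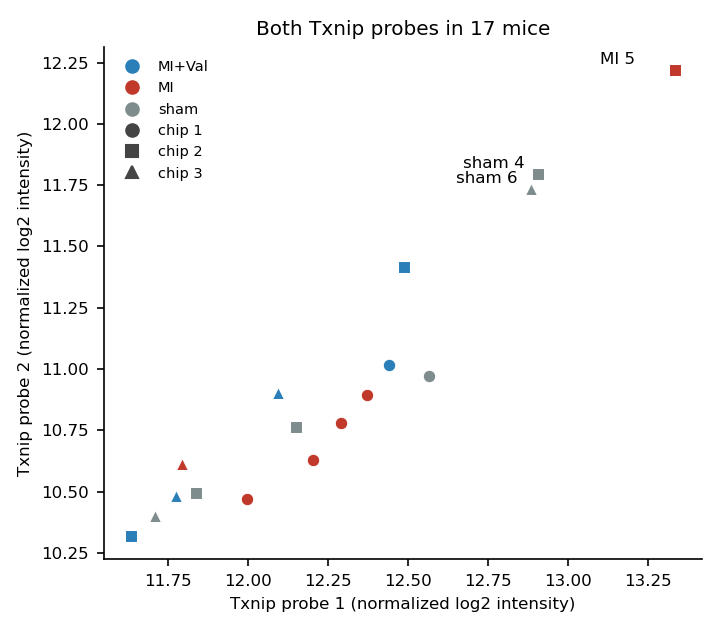
Normalized log2 intensity of Txnip probe 2 against probe 1 in the 17 mice, coloured by group, with the chip as the marker's shape. MI mouse 5 stands at 13.33 and 12.22, and sham mice 4 and 6 come next. These 3 are the highest on both probes, so all other mice, of each group, lie below them.

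**Figure D4:**
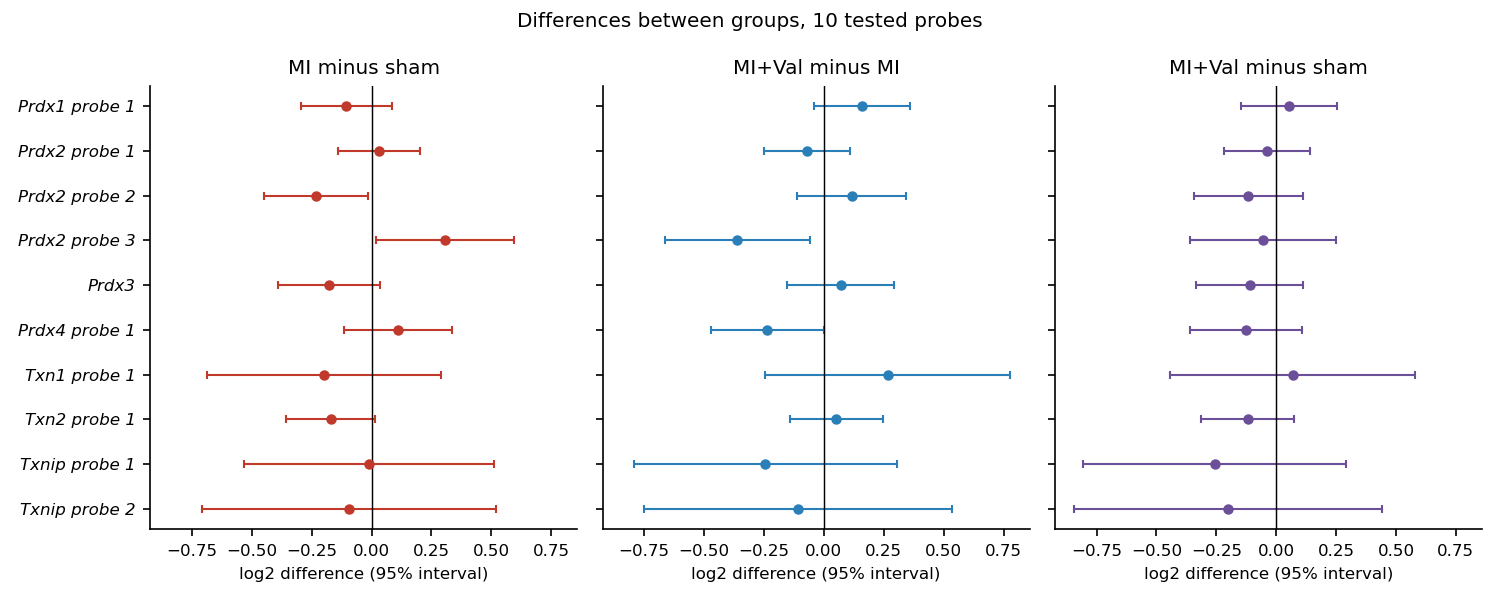
Log2 difference of each of the 10 tested probes with its 95% interval for MI minus sham (left), MI+Val minus MI (middle) and MI+Val minus sham (right), fitted with limma. The intervals that leave out 0 are those of Prdx2 probes 2 and 3 in MI vs sham and of Prdx2 probe 3 and Prdx4 in MI+Val vs MI, all at an adjusted p over 0.2.

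The members showed no firm relation to each other across mice. Of 21 pairs among the 7 tested genes, each read by its brightest probe over the 17 mice, 0 passed a permutation test at an adjusted p under 0.05, by Pearson or by Spearman. Prdx1 and Prdx2 had the lowest coefficient, with Pearson r = -0.66 (permutation p = 0.00262, adjusted over 21 pairs p = 0.0550) and Spearman rho = -0.50 (permutation p = 0.0423, adjusted p = 0.261). It was -0.38 without the 2 mice farthest from the median of Prdx1, and -0.82, -0.06 and -0.41 within chips 1, 2 and 3. Prdx1 and Txn1 had Pearson r = 0.63 (permutation p = 0.00747, adjusted p = 0.0784) and Spearman rho = 0.60 (permutation p = 0.0126, adjusted p = 0.176), with 0.60 without the 2 farthest mice and 0.52, 0.74 and -0.18 within the chips. Both coefficients thus changed in size or sign between chips.

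Prdx1 is, with Txnrd1, among the known targets of the stress factor NRF2, which binds antioxidant response elements. Its promoter is printed from RefSeq (GRCm38.p6, chr4:116685349-116685648, plus strand) to show the one match to the core TGACNNNGC, searched on both strands and here on the minus strand, at 133 bases before the start. The same letters hold TGACTCA, the sequence that AP-1 factors bind. The core was found in 12.4% of all promoters, and 1 of 3 Txnrd1 promoters also held it.
Prdx1: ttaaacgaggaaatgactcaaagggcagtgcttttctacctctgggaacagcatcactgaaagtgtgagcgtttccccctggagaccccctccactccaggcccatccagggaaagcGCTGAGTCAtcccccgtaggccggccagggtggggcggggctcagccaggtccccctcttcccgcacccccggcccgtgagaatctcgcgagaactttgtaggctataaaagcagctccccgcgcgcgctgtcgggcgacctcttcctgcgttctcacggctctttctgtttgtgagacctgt

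By the rule of likeness, the genes whose levels followed the members with the smallest F-test p over the 17 arrays were named. For Prdx2, on probe 3, these were Syap1 (Pearson r = 0.84, or 0.75 after removing group means), Marchf5 (0.80 and 0.69) and Pmm2 (0.79 and 0.74). For Prdx4 they were Rfc2 (0.89 and 0.89), Mrps24 (0.82 and 0.78) and Psma2 (0.81 and 0.76). These are the highest of all tested genes, so high coefficients follow from the choice.

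Around the members, 67 further redox and glucose-handling genes were listed in 6 groups, of which 40 had a tested probe (59 probes). In MI vs sham 2 of 40 were lower in MI and 0 higher, against 6.16% of all tested genes called by the same rule. Between MI+Val and MI mice 0 of 40 were called by limma, against 0.0121% of all genes. Between MI+Val and sham mice 0 of 40 were called, against 0.0243%. At an unadjusted p under 0.05 there were 6 of 59 probes in MI vs sham, against 19.2% of all tested probes. There were 2 of 59 in MI+Val vs MI, against 8.61%, and 3 of 59 in MI+Val vs sham, against 7.38%. The median log2 difference over the 59 probes was -0.02 in MI vs sham, -0.01 in MI+Val vs MI and -0.01 in MI+Val vs sham.

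The first of the called genes was Slc2a4, the insulin-responsive glucose transporter GLUT4 whose uptake into the cell Txnip is known to promote. It read 10.54, 11.14, 10.92, 10.71 and 10.79 in MI+Val mice, 10.34 to 10.81 in MI mice (median 10.70) and 10.89 to 11.34 in sham mice (median 11.21). The MI and sham mice did not overlap. Nor did they for P4hb, a gene described below that was not called (11.85 to 12.18 in MI and 11.62 to 11.82 in sham mice). The log2 difference of Slc2a4 in MI vs sham was -0.53 ± 0.11 (SE, limma adjusted p = 0.00836), and with the chip as a block -0.38 (adjusted p = 0.0589). Its MI+Val vs MI difference was 0.19 (adjusted p = 0.679).

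The second was Glrx2, the mitochondrial glutaredoxin, on 1 of its 2 tested probes. That probe (ILMN_3096267) read 6.42, 6.39, 6.43, 5.73 and 6.27 in MI+Val mice, 5.65 to 6.35 in MI mice (median 5.95) and 6.18 to 6.99 in sham mice (median 6.57), with overlap. The log2 difference in MI vs sham was -0.57 ± 0.15 (SE; limma adjusted p = 0.0315), and -0.10 on the other probe (adjusted p = 0.732). With the chip as a block the first probe had an adjusted p of 0.132. In the authors' log2 values, whose scale is narrower for dim probes, its difference was -0.18 with an adjusted p of 0.0526. Leaving out MI mouse 1, 3, 4 or 6 or sham mouse 3, 4, 5 or 6 put its adjusted p at 0.0555 to 0.0800.

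The remaining groups gave no call. Among thioredoxin partners (0 of 10 genes called) the smallest p in MI vs sham were those of Aifm2, which reduces quinones in membranes, Txnrd3, a thioredoxin and glutathione reductase, Nnt, which makes mitochondrial NADPH, and Msrb2, a methionine sulfoxide reductase, with log2 differences of 0.18, 0.15, -0.29 and 0.11. Between MI+Val and MI mice the nearest were a second Aifm2 probe at -0.30 and 1 probe of Srxn1 at -0.23 (limma adjusted p = 0.585 and 0.586). Srxn1 is sulfiredoxin, which restores over-oxidised peroxiredoxins. Its other probe had 0.04 in MI+Val vs MI, and the first Aifm2 probe had -0.15.

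Besides Glrx2, 0 of the other 5 genes for glutaredoxins and glutathione synthesis were called. Gclm, Gss and Glrx5 had log2 differences of 0.23, -0.26 and 0.12 in MI vs sham, while Glrx had -0.12 in MI+Val vs MI. The other Gss probes had 0.13 and 0.12 in MI vs sham, and the other Glrx probe had 0.06 in MI+Val vs MI. Among thioredoxin-fold proteins of the endoplasmic reticulum, where Prdx4 works, 0 of 10 were called. P4hb, protein disulfide isomerase, was nearest, with 0.27 in MI vs sham (limma adjusted p = 0.0679) and -0.22 in MI+Val vs MI (adjusted p = 0.501). Tmx1 had 0.30 and Txndc5 had 0.22 in MI vs sham. Txndc15 had -0.31 in MI vs sham and 0.41 in MI+Val vs MI on a dim probe (ILMN_2655250). On its brighter probe (ILMN_2923736) these differences were -0.02 and 0.01.

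Among NRF2 and its target genes 0 of 8 were called. Me1, Gclm, Taldo1 and Nfe2l2, which encodes NRF2 itself, had log2 differences of 0.22, 0.23, -0.14 and 0.18 in MI vs sham. In MI+Val vs MI, Srxn1 had -0.23 on 1 probe and 0.04 on the other, and Nfe2l2 had -0.19. Mlxipl, the glucose-sensing factor ChREBP, had -0.45 in MI vs sham (limma adjusted p = 0.132) and, on its other probe, 0.32 in MI+Val vs MI (adjusted p = 0.644). Its relative Mlxip had -0.28, and Arrdc4, an alpha-arrestin related to Txnip, had 0.19 in MI vs sham and -0.19 in MI+Val vs MI. Over the 17 mice Arrdc4 and Txnip probe 1 had Pearson r = 0.05 (permutation p = 0.844, adjusted over 3 relations p = 0.844) and Spearman rho = 0.04 (permutation p = 0.883, adjusted p = 0.883), with 0.06 without the 2 farthest mice and -0.66, 0.17 and 0.59 within the chips. Of the selenoprotein synthesis genes 0 of 2 were called, and Secisbp2 and Sephs2 had -0.27 and -0.13 in MI vs sham and 0.09 and -0.05 in MI+Val vs MI.

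The 17 arrays correlated with each other at 0.966 to 0.990 and lay on 3 chips, of which chip 1 held 1 MI+Val, 4 MI and 1 sham array, chip 2 held 2, 1 and 3, and chip 3 held 2, 1 and 2. Cardiomyocyte markers were bright in every group, with a mean log2 intensity of 12.60 to 12.75 in MI+Val, 12.40 to 12.71 in MI and 12.52 to 12.80 in sham mice, and 0 of 8 were called. Macrophage markers were higher in MI vs sham for 5 of 8 genes (Adgre1, Csf1r, C1qa, C1qb and Lyz2), against 6.16% of all tested genes called. Their mean was 8.46 to 8.79 in MI+Val, 8.60 to 9.18 in MI and 7.97 to 8.51 in sham mice. Adgre1 and Lyz2 each missed on another probe (limma adjusted p = 0.152 and 0.101). Of fibroblast genes 1 of 6, Dcn, was higher on ILMN_2596346 (limma adjusted p = 0.0109), but its other tested probes missed (0.0776, 0.138 and 0.775). For endothelial, smooth muscle and red blood cell lists 0 of 5, 0 of 2 and 0 of 4 genes were called. In such bulk RNA fewer cells of a type and less RNA per cell cannot be told apart, and the part of cell makeup in the values of the members was not tested.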

How the data were processed

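RNA of 17 mice (5 MI+Val, 6 MI, 6 sham) was read on 17 Illumina MouseWG-6 v.2 arrays. The authors deposited the signal of each of 45281 probes as an intensity without background subtraction or normalization, with a detection p-value beside it. The authors also deposited log2 values made by a variance stabilizing transformation and then robust spline normalization, for which the submitters' processing notes name lumi and R 3.0.1. Array number, not sequencing depth, limits the precision.

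Intensities were processed with limma 3.58.1 in R 4.3.3 (neqc: background from detection p-values, offset 16, quantile normalization, log2). The offset makes differences of dim probes smaller. Probes with a 33rd percentile of signal of at least 125 were tested. One linear model held the 3 groups, with an F test and 3 comparisons. Variances were moderated by empirical Bayes, and p-values were adjusted by Benjamini-Hochberg over all 13609 probes. The model was tested on simulated data. Symbols came from the platform annotation (34885 probes with 1 symbol, 18 with several, 10378 with none), updated through gene identifiers. Correlations had two-sided permutation tests with 100000 draws. A further gene was called where 1 or more of its probes were called. Named genes were all members, the 4 genes of each list with the smallest p between MI and sham mice, the 2 with the smallest p between MI+Val and MI mice, and the 3 genes most like each of 2 members. Members and lists were chosen with earlier results of these data known. Alternatives were other background, scaling and filter settings, the authors' log2 values, chip and replicate blocks, array weights, the methods' t-test and leaving out each mouse. Replicates are separate mice. The main model did not pair mice by replicate number.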

Additional observations from a re-analysis of the deposited data

Results flagged for a closer look

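Of 30 combinations of a tested member probe and a group, 3 held a mouse set apart from the rest of its group, by a gap to its neighbour that was large for the group's range. About 1 in 20 is set apart by chance. MI mouse 5 had 13.33 log2 units on Txnip probe 1, against 11.79 to 12.37 in the other MI mice, and 12.22 on Txnip probe 2, against 10.47 to 10.89. MI mouse 4 had 5.81 on Prdx2 probe 3, below the 6.17 to 6.34 of the other MI mice.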

How the results depend on the processing

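The count of member probes called stayed at 0 in the 3-group test under 10 other settings and in each comparison under 13, and at 0 when any of the 17 mice was left out. Among single members, the direction of the difference changed in 6 of 127 values in MI vs sham, 0 of 127 in MI+Val vs MI and 1 of 127 in MI+Val vs sham over the other settings, and in 9, 2 and 5 of 170 when a mouse was left out. Within single chips it changed in 7, 11 and 9 of 30. The count of further redox genes in MI vs sham, 2, was 0 with the chip as a fixed block, which keeps fewer calls among all probes too (267, against 650), and 1 without the filter. It ranged over 1 to 3 when a mouse was left out, with 1 without MI mouse 1, 3, 4 or 6 or sham mouse 3, 5 or 6. The causes were not tested. P4hb passed in MI vs sham without background correction (adjusted p = 0.0268), with an offset of 50 (0.0478), in the authors' log2 values (0.0393), with array weights (0.0275) and in the methods' t-test (0.0398), and Mlxipl passed without sham mouse 1 (0.0360). Glrx2 also missed the threshold without the filter (0.0797), with the replicate block (0.0544) and in the methods' t-test (0.0766).

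With the replicate block the count of further redox genes in MI vs sham was 1 and no member probe was called. Over all probes the block gave 675 calls in MI vs sham, 0 in MI+Val vs MI and 0 in MI+Val vs sham. Deviations of same-numbered mice correlated at -0.20 to 0.43, above 0.1 in 6 of 16 pairs, and 6 of 17 arrays correlated best with their own number. No chance share was computed for these counts, and the numbers partly follow the chips. Whether the numbers pair the mice is therefore not decided by this check. Wide intervals for Txn1 and Txnip, and signals near background for Txnrd1, limit what these 17 arrays can show.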
